A study of Mus musculus with 4 samples.

Results

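Genes of mismatch repair, homologous recombination and DNA damage signalling were examined in NIH/3T3 immortalised mouse fibroblasts after knockdown of *Setd2*, the methyltransferase that deposits H3K36me3. The 39 genes were given by symbol, in a list chosen with earlier results of these data known. All their isoforms in the table of tested transcripts were used. They had 69 of the 34200 tested transcripts and were 39 of the 21945 genes in the table. The KD samples were NIH/3T3 cells co-transfected with *Setd2*-specific siRNAs, and the WT samples were the same unmodified cell line transfected with Scrambled (non-targeting) siRNA. In both groups the transfection agent was Lipofectamine 3000 and the siRNA concentration 10 nM, and cells were lysed 48 h later. The 4 libraries, 2 of KD and 2 of WT, were stranded and held polyadenylated mRNA. The knockdown was transient and used a pool of siRNAs, so effects of either siRNA on its own could not be separated.

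Mismatch repair removes bases that the polymerase has mispaired. Homologous recombination restores a broken chromosome from its sister copy after the broken ends have been resected, whereas end joining ligates the ends directly. ATM and ATR are kinases that respond to breaks and to stalled replication, and they signal through checkpoint kinases and through ubiquitin marks that are placed on chromatin around the damage. H3K36me3 is known as a mark that the MutSα mismatch recognition complex binds, and as a mark of transcribed genes at which recombination is favoured.

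The level of a transcript was the geometric mean over the 4 libraries, in normalised estimated counts. The difference between KD and WT was obtained from the variance over the 4 libraries and the variance that remained within groups, so it had a size on the log2 scale, a standard error (SE) and a test, but no direction. For this reason the group levels are given as those of the lower and the higher group, and values of single libraries are not shown. A transcript was called at an adjusted p under 0.05 in the moderated F test of limma, with the Benjamini-Hochberg adjustment over all 34200 transcripts. The test sets the difference against the moderated spread within groups of these samples, which may be technical.

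The *Setd2* transcript had a level of 1844 and differed between the groups by 1.99 on the log2 scale (SE 0.081, 95% interval 1.78 to 2.21), a 3.98-fold difference. Its level was 923 in the lower group and 3680.4 in the higher group, with an adjusted p of 0.0144 in limma's moderated F test. This shows that the groups differed in the targeted gene, and it does not check which group was the lower. The levels of all transcripts summed to 65222063 normalised estimated counts, and the depth of each library was unknown. Fibroblast markers were all in the table, 10 of 10, with summed levels between 3083 and 323250. Of the 4 epithelial, 3 immune, 3 endothelial and 3 neural markers, 2, 2, 3 and 1 were in the table, with summed levels of at most 113, 343, 30.9 and 3.03. In RNA from whole cultures, a change in the share of cells in a given state and a change in RNA per cell cannot be told apart.

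All 39 genes were expressed, and most were above the median of all genes in the table, which include genes that are not protein-coding. A median level of protein-coding genes alone was not computed. The summed level of the members over isoforms was 1376 at the median (all genes, 206) and ranged from 332 for *Mlh3* to 6170 for *Mdc1*. Per kb of annotated transcript length, the scale used here to compare genes, the median was 375 counts per kb against 120 for all genes. Whether reads covered long transcripts evenly was not checked. The range from the lowest to the highest member was 18.2-fold, and these members lay above 44.3% and 82.4% of all genes.

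The end joining pair *Xrcc5* and *Xrcc6*, which encode the Ku heterodimer that caps broken ends, had the highest levels per kb, at 1160.2 and 1026. They were followed by *Mdc1*, the scaffold that binds phosphorylated H2AX, at 841, by *Rnf168*, a ubiquitin ligase of damaged chromatin, at 764, and by *Mre11a*, the nuclease of the MRN complex, at 724. At the other end were *Mlh3*, a MutL partner, at 63.6 and *Prkdc*, the kinase that Ku recruits, at 100.3. The recombination mediator *Brca2* followed at 104, its partner *Palb2* at 123 and the ubiquitin ligase *Rnf8* at 136. Thus on this scale the genes of one end joining complex lay at both ends of the order, since *Prkdc* was 38th and *Xrcc5* 1st of 39. By summed counts, not divided by length, *Prkdc* was 21st and *Xrcc5* 5th.

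The remaining genes lay between these values. In mismatch repair, *Pms1* had 147, *Msh3*, the partner in the complex that binds larger loops, 240, *Exo1*, the exonuclease, 289.7 and *Pms2*, the nuclease subunit of MutLα, 449.7 counts per kb. Among the recombination genes, *Bard1*, the partner of *Brca1*, had 167, *Xrcc3* 178, *Brca1* 238, *Xrcc2* 252, *Rad51c* 293, *Rad51b* 375, *Rad51d* 496, the translocase *Rad54l* 662 and the annealing factor *Rad52* 702. The related genes *Rad51b*, *Rad51c*, *Rad51d*, *Xrcc2* and *Xrcc3*, which act in strand exchange, therefore spanned 178 to 496.

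Of the resection and helicase genes, *Wrn* had 151, *Blm* 375, *Rad50* 445, *Rbbp8* 480.4 and *Nbn* 579.6 counts per kb, the first pair being RecQ helicases. In damage signalling, *Atm* had 200.2, *Atr* 243, *Trp53bp1*, which favours end joining at breaks, 379, *Chek1* 548, *Chek2* 605 and *Rif1*, which acts with the *Trp53bp1* product against resection, 637. The end joining genes *Lig4* and *Xrcc4*, which form the ligase complex, had 273 and 450.4. Finally *Fancd2* and *Fanci*, the pair that is ubiquitinated at DNA crosslinks, had 212 and 243, whereas *Fanca* of the core complex had 615.

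**Figure D1:**
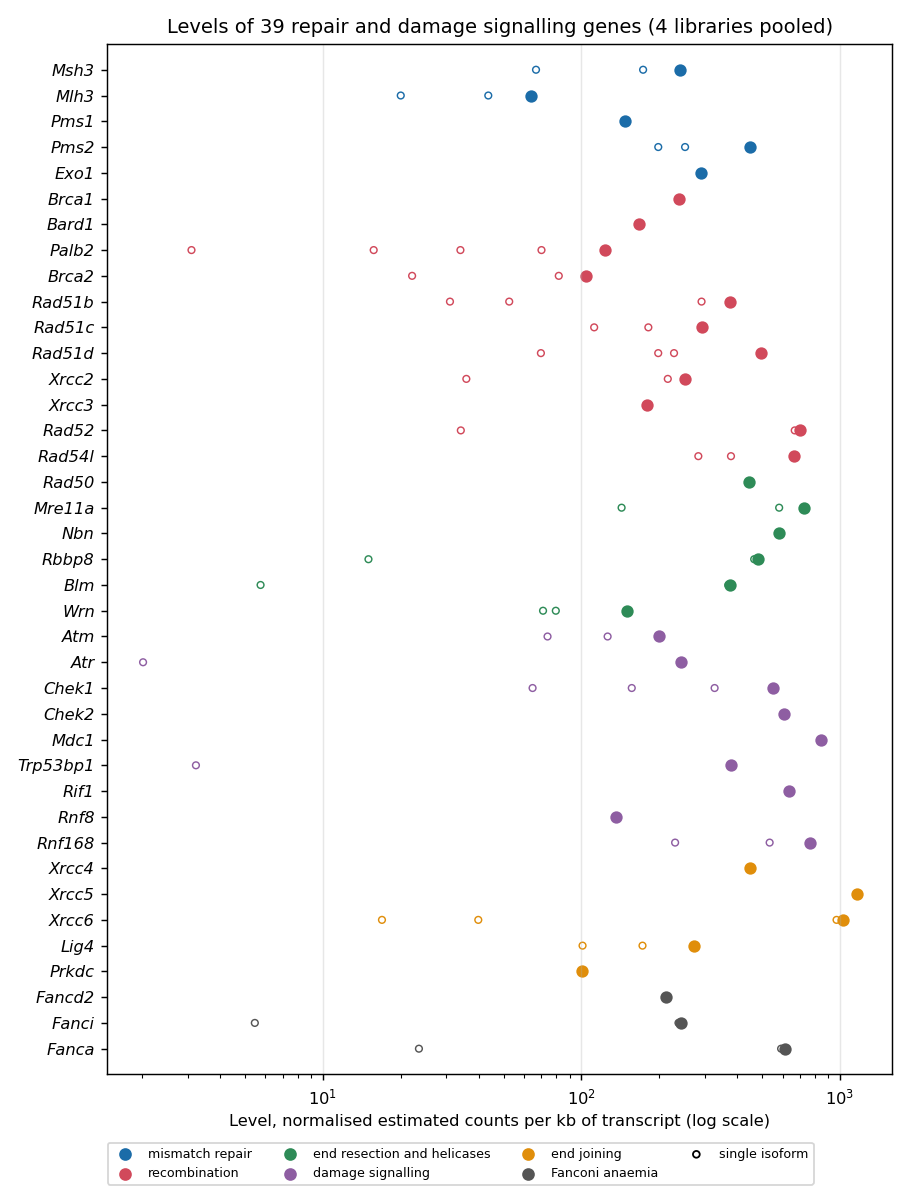
Level of each of the 39 genes over the 4 pooled libraries, in normalised estimated counts per kb of transcript on a log axis, coloured by role. Filled points are the sum over tested isoforms and open points are single isoforms of genes with several; *Xrcc5* is highest at 1160.2 and *Mlh3* lowest at 63.6.

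The genes were also longer than most. The main isoforms of the members had a median coding length of 2679 bases and 16 exons, against 1302 bases and 8 exons for the main isoforms of 14470 protein-coding genes in the table. The number of exons ran from 2 to 86, the highest being that of *Prkdc*.

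In 15 genes a single isoform was tested, in 19 genes 2, in 4 genes 3, and in *Palb2* 4. The main isoform of the 24 genes with several had a median share of 75.3% of the estimated counts of its gene. This share was at least 90% in 9 genes, among them *Atr* (99.2%), *Fanci* (99.4%), *Trp53bp1* (99.2%) and *Blm* (98.4%). It was under 65% in 5 genes, namely *Wrn* (58.3%), *Rad54l* (59.3%), *Rad51c* (59.9%), *Atm* (63.1%) and *Palb2* (64.5%). With log-normal means *Palb2* had the lowest share, at 56.9%, and *Fanci* fell to 96.0%. These are shares of counts and not of molecules, as a longer isoform gives more fragments.

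**Figure D2:**
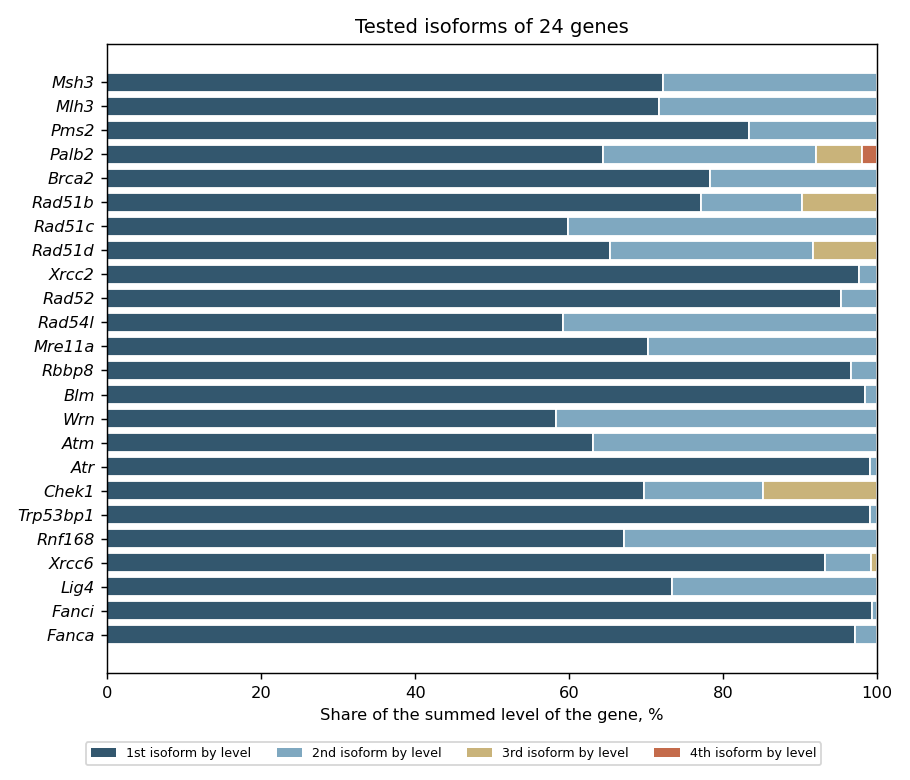
Share of each tested isoform in the summed level of its gene, in % of normalised estimated counts, for the 24 genes with several tested isoforms. The darkest part is the main isoform, whose share is smallest in *Wrn* (58.3%) and largest in *Fanci* (99.4%); with log-normal means *Palb2* (56.9%) is lowest and *Fanci* has 96.0%, below *Trp53bp1* (99.0%).

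Some isoform pairs of these genes differed in their coding sequence by only a few bases. These sequences are shown because they are what sets the coding sequences of the isoforms apart. The windows are from GENCODE M21 transcripts on GRCm38, in the direction of the gene, and the capitals mark the coding bases that are only in the longer isoform. In *Msh3* they lie at chr13:92235729-92235731 (minus strand), in *Rad52* at chr6:119922472-119922474 (plus strand), in *Atm* at chr9:53461112-53461120 (minus strand) and in *Atr* at chr9:95908443-95908460 (plus strand). All 4 differences are in coding exons and keep the reading frame, with 3, 3, 9 and 18 bases.
*Msh3*, longer: gagtttatcaCAGgactcggaga
*Msh3*, shorter: gagtttatcagactcggaga
*Rad52*, longer: ggtagcagagAAGactctgaacc
*Rad52*, shorter: ggtagcagagactctgaacc
*Atm*, longer: gatatgccagTCTTTTCAGggtgaaagaa
*Atm*, shorter: gatatgccagggtgaaagaa
*Atr*, longer: aaggagGTAAGGTCAACAAAATATtatcaa
*Atr*, shorter: aaggagtatcaa

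The longer isoform was the main one in *Msh3* (72.2% of the counts) and *Rad52* (95.3%), whereas it was the minor one in *Atm* (36.9%) and *Atr* (0.836%). With log-normal means the shorter *Atr* isoform had 86.7% in place of 99.2%, as the longer had an SD within groups of 3.23 on the log2 scale. None of these 8 isoforms was called, although the longer *Atr* isoform was when the residual variance was held at or above that of the read assignment. That isoform had a level of only 16.3, and its difference as reported was 3.88 (SE 2.14, 95% interval -1.75 to 9.51). In *Atm* the longer isoform differed between KD and WT by 0.39 (SE 0.106) and the shorter by 0.15 (SE 0.110), with adjusted p-values of 0.0930 and 0.426 in limma's moderated F test. The difference between the isoforms of a gene in their response was not tested.

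Reads were assigned with less certainty in genes with several isoforms. The transcripts were compared as 31-base words with the other basic transcripts of GENCODE M21. In genes with a single tested isoform a median of 98.2% of the words of a transcript were held by no other transcript, but in genes with several only 3.10%. The SD of the read assignment had a median of 0.036 on the log2 scale in the former and 0.138 in the latter. It was larger than the SD within groups in 29 of the 69 transcripts. At least 95% of the words were held by no other gene in 54 of the 69 transcripts. The lowest shares were those of *Rnf8* (65.7%), the minor isoform of *Pms2* (77.5%) and the *Trp53bp1* isoforms (78.2% and 78.7%), and the called *Rbbp8* isoform had 92.5%.

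**Figure D3:**
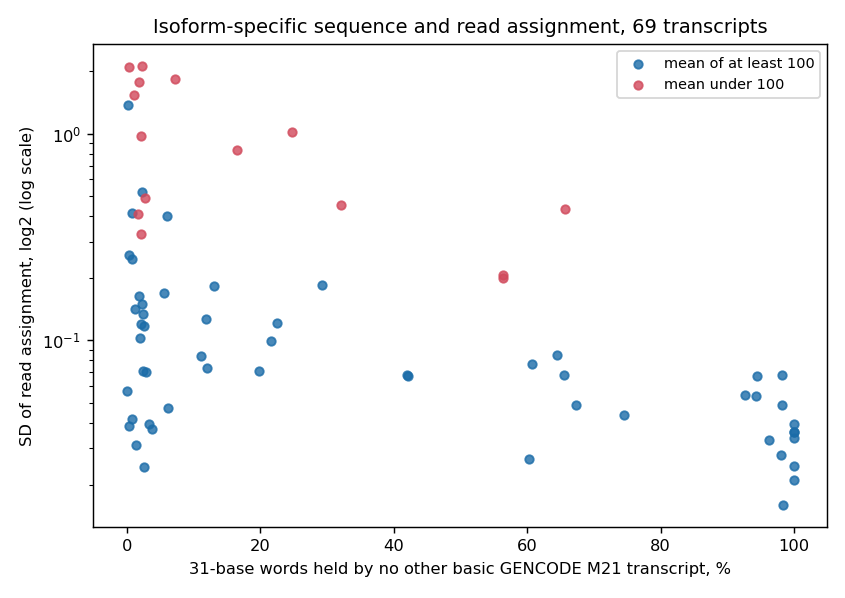
SD of the read assignment of the 69 transcripts (log2 units, log axis) against the share of their 31-base words that no other basic transcript holds (%), coloured by level. Transcripts with under 5% such words (29 of 69) had a median SD of 0.149, the others 0.068.

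Knockdown against control was then compared for every transcript. In 5 of the 69 member transcripts (7.25%), each in a different gene, the groups differed past the threshold, against 9.68% of all transcripts. The 5 genes of 39 (12.8%) stood beside 13.2% of all genes with a called transcript. The called isoforms were those of *Rbbp8*, *Brca2*, *Prkdc*, *Brca1* and *Wrn*, and in each gene the called isoform was the main one. Of the 54 members with a level of at least 100, 5 were called (9.26%), against 15.6% of all such transcripts. The members' share was not above the background, so this count is not a result about the genes as a group. Each of these 5 calls was lost when the variance was moderated without a trend on the level.

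*Rbbp8* encodes CtIP, the cofactor that starts resection with the MRN complex. Its main isoform (ENSMUST00000047322.7, 19 exons, GRCm38 chr18:11657429-11742878, plus strand) had a level of 1115 in the lower group and 2001 in the higher. This is a difference of 0.84 on the log2 scale (SE 0.083, 1.79-fold, 95% interval 1.54 to 2.09), with an adjusted p of 0.0190 in limma's moderated F test. The SD within groups was 0.045, and the difference took up 99.4% of the sum of squares over the 4 libraries. Libraries of the groups did not overlap, as in 65.3% of all transcripts with a level of at least 100. Overlap and the share of squares come from the same variances as the test, so they add no support to it. Its minor isoform, with the same coding sequence and a level of 52.9, differed by 1.29 (SE 0.499) with an adjusted p of 0.181. Of the words of the called isoform 0.818% were its own.

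*Brca2* is a mediator of recombination at resected DNA. The isoform with 78.4% of its counts (ENSMUST00000202313.1, 27 exons, chr5:150522644-150569747, plus strand) had levels of 644 and 1147 in the lower and the higher group. The difference was 0.83 (SE 0.117, 1.78-fold, 95% interval 1.44 to 2.20, adjusted p = 0.0283 in limma's moderated F test). The groups did not overlap, as in 65.3% of all transcripts with a level of at least 100. The minor isoform, at a level of 237, differed by 0.15 (SE 0.185, adjusted p = 0.656). Both encode the same protein, and 0.296% of the words of the called isoform were its own. Its SD of read assignment was 0.259, above the SD within groups of 0.119.

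*Prkdc*, the catalytic subunit of the DNA-dependent protein kinase, was tested as a single isoform (ENSMUST00000023352.8, 86 exons, chr16:15637889-15842235, plus strand). Its level was 1031 in the lower and 1559 in the higher group, a difference of 0.60 (SE 0.103, 1.51-fold, 95% interval 1.25 to 1.82), with an adjusted p of 0.0394 in limma's moderated F test. All of its words were its own. The other 4 end joining genes among the 39 were not called, where 13.2% of all genes had a called transcript. Of these, *Xrcc5* was called when only transcripts with a level of at least 100 were tested.

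*Brca1*, the ubiquitin ligase that acts with *Bard1* in resection and recombination, had the smallest called difference. Its isoform (ENSMUST00000017290.10, 23 exons, chr11:101488764-101551879, minus strand) had levels of 1345 and 1825 in the lower and the higher group. The difference was 0.44 (SE 0.082, 1.36-fold, 95% interval 1.17 to 1.57) with an adjusted p of 0.0442 in limma's moderated F test. As in 65.3% of all transcripts with a level of at least 100, the groups did not overlap. *Bard1* itself had a difference of 0.26 (SE 0.106, adjusted p = 0.197).

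*Wrn*, the helicase and exonuclease lost in Werner syndrome, had 2 isoforms with the same coding sequence. The isoform with 58.3% of the counts (ENSMUST00000033991.12, 34 exons, chr8:33234384-33385527, minus strand) had levels of 405 and 612, a difference of 0.59 (SE 0.112, 1.51-fold, 95% interval 1.23 to 1.85, adjusted p = 0.0453 in limma's moderated F test). The other isoform, at a level of 357, had a difference of 0.39 (SE 0.137) and an adjusted p of 0.150. Unlike in *Brca2*, 21.7% of the words of the called isoform were its own.

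**Figure D4:**
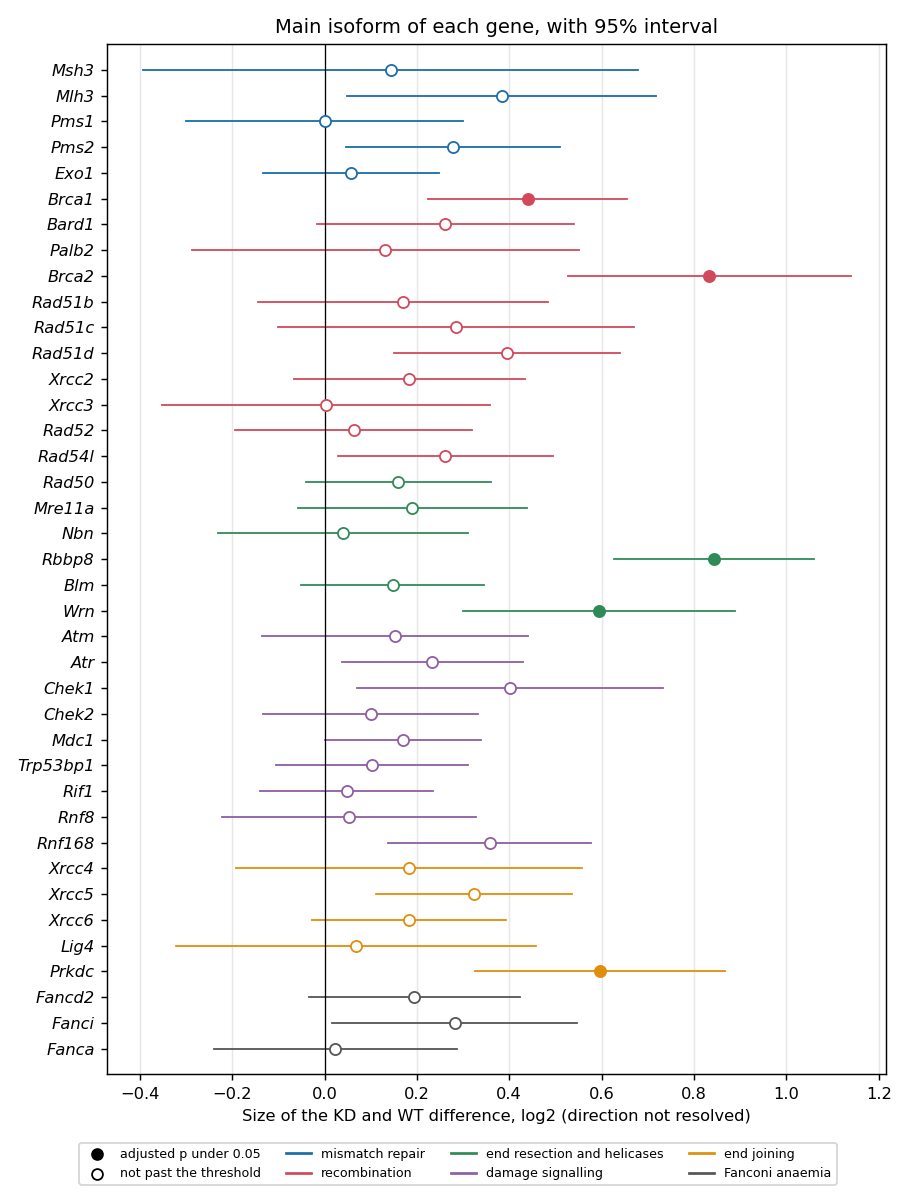
Size of the KD and WT difference (log2, x axis) for the main isoform of each of the 39 genes, with the 95% interval as a line and colours by role. The direction is not resolved, and an interval that crosses 0 includes no difference; filled points, from *Brca1* at 0.44 to *Rbbp8* at 0.84, passed an adjusted p of 0.05.

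The 5 transcripts next to the threshold had adjusted p-values between 0.0679 and 0.0895 in limma's moderated F test. Of these, 3 were main isoforms with small errors, those of *Rnf168* (0.36, SE 0.083, level 2100.2), *Rad51d* (0.40, SE 0.093, level 679) and *Xrcc5* (0.32, SE 0.081, level 2964). The others were minor isoforms of *Trp53bp1* (1.41, SE 0.357, level 30.4) and *Xrcc6* (1.37, SE 0.367, level 17.98), whose main isoforms differed by 0.10 and 0.18. Of the words of the *Rnf168* isoform 0.0% were its own. When only transcripts with a level of at least 100 were tested and the p-values adjusted over them, the *Rnf168*, *Rad51d* and *Xrcc5* isoforms were also called, which gave 8 of 54 members (14.8%) against 26.4% of all such transcripts.

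The sizes of the members were set beside those of all transcripts, without a test. For the 54 member transcripts with a level of at least 100 the median size was 0.22, against 0.28 for all 18808 such transcripts, and the median SD within groups was 0.091 against 0.112. The largest was the 0.84 of *Rbbp8*, so that none exceeded 1, whereas 904 of all such transcripts (4.81%) did. In the uncalled members of this level the upper 95% limit of the size had a median of 0.51 and lay between 0.24 (*Rif1*) and 1.11 (the minor isoform of *Msh3*). Among the 15 members under a level of 100 the size exceeded 1 in 7 (46.7%, against 23.2% of all transcripts of that level), yet none was called and 369 of all 15392 such transcripts (2.4%) were. These 7 were minor isoforms at levels from 7.10 to 52.9, with an SD of read assignment from 0.83 to 2.12 on the log2 scale. Their sizes are thus imprecise, and a size is above 0 even without a true difference. An unadjusted p under 0.05 was found for 24 members (34.8%) against 28.2% of all transcripts.

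**Figure D5:**
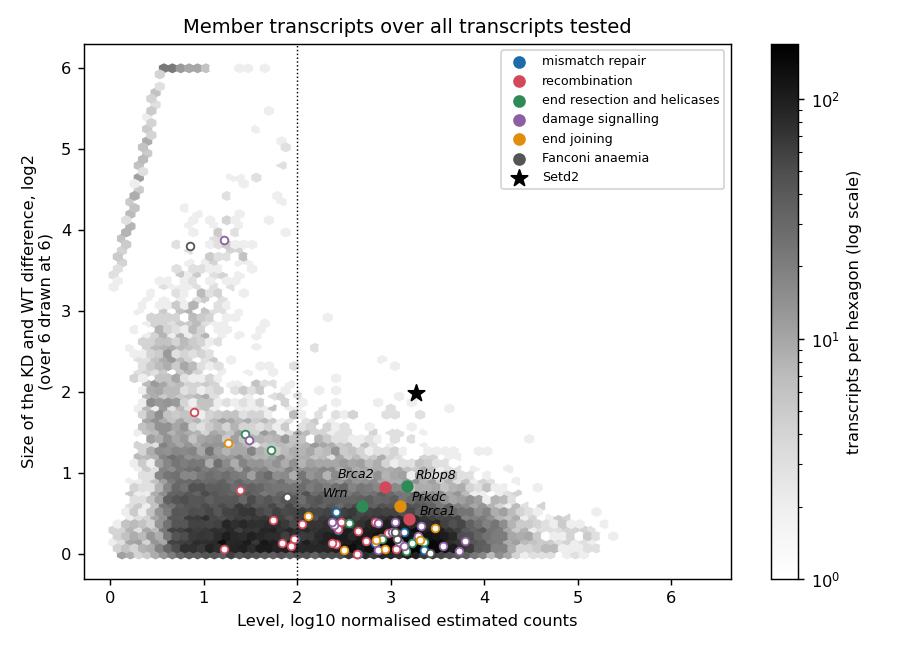
Size of the KD and WT difference (log2, values over 6 drawn at 6) against the level (log10 of normalised estimated counts) for all transcripts (grey hexagons, darker where more lie) and for the members (points by role, filled where called). The dotted line is a level of 100, to the right of which no member exceeds a size of 1; the star is *Setd2* at 1.99.

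Libraries of KD and WT could not overlap in 47 of the 69 member transcripts (68.1%, against 54.8% of all transcripts), as the difference was too large for the spread within groups. They overlapped in 17, and in 5 the variances did not settle it. At a level of at least 100 the groups were apart in 39 of 54 members (72.2%), against 65.3% of all such transcripts. With 2 libraries a group, groups can lie apart without a true difference, and these shares were not tested. The counts are therefore not a result about the genes as a group.

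The counts by role are over few transcripts, and with 9.68% of all transcripts called they say nothing about a role. Mismatch repair had no called transcript among 8, and the sizes ran from 0.00 to 0.52. *Pms1*, a MutL partner, had a difference of 0.00 with an upper 95% limit of 0.30, and *Exo1* one of 0.06 with a limit of 0.25. *Pms2* had 0.28 (SE 0.088, adjusted p = 0.125) in its main isoform. The main isoforms of *Msh3* and *Mlh3* had 0.14 (SE 0.204) and 0.38 (SE 0.127), with upper limits of 0.68 and 0.72. The SD of read assignment of the main *Mlh3* isoform was 1.38.

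In recombination 2 of 23 transcripts were called (all transcripts, 9.68%), the *Brca1* and *Brca2* isoforms described above. The 5 related genes of strand exchange had different sizes, with *Xrcc3* at 0.00 (upper 95% limit 0.36), *Rad51b* at 0.17, *Xrcc2* at 0.18, *Rad51c* at 0.29 and *Rad51d* at 0.40 in their main isoforms, but none passed the threshold. *Palb2*, which bridges *Brca1* and *Brca2*, had 0.13 (SE 0.159) in its main isoform. The smallest difference in the rest was that of *Rad52*, at 0.06 with an upper limit of 0.32, and *Rad54l* had 0.26 (SE 0.088, adjusted p = 0.142).

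Of the resection and helicase genes, *Rbbp8* and *Wrn* were called, which is 2 of 10 transcripts beside 9.68% of all transcripts. The subunits of the MRN complex, with which CtIP acts, had smaller differences, with 0.16 for *Rad50*, 0.19 for *Mre11a* and 0.04 for *Nbn*. Their upper 95% limits were 0.36, 0.44 and 0.31, each below the lower limit of *Rbbp8* (0.63). *Blm*, the other RecQ helicase of the list, had 0.15 (SE 0.076) in its main isoform, with an upper limit of 0.35.

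None of the 15 damage signalling transcripts was called, beside 9.68% of all transcripts. The kinases *Atm* and *Atr* had 0.15 and 0.23 in their main isoforms, and the checkpoint kinases *Chek1* and *Chek2* 0.40 and 0.10. All 3 isoforms of *Chek1* lay between 0.37 and 0.41, with adjusted p-values from 0.124 to 0.228 in limma's moderated F test. In each the groups did not overlap, as in 65.3% of all transcripts with a level of at least 100. These sizes carry no direction, and only 2.82%, 13.1% and 1.83% of the words of the isoforms were their own. The genes with the highest counts in the list were measured most precisely and differed little. *Mdc1* had 0.17 (SE 0.064) and *Rif1* 0.05 (SE 0.071), with upper limits of 0.34 and 0.24. *Rnf8* had 0.05 and *Trp53bp1* 0.10, both below the 0.36 of *Rnf168*.

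In end joining 1 of 8 transcripts was called, that of *Prkdc*, and in the Fanconi anaemia genes none of 5, beside 9.68% of all transcripts. *Lig4* and *Xrcc4*, which act together in ligation, had 0.07 and 0.18 in their main isoforms, with upper limits of 0.46 and 0.56. *Fancd2*, *Fanci* and *Fanca* had 0.19, 0.28 and 0.02 in their main isoforms, and the limit for *Fanca* was 0.29.

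Further genes of the same pathways were also compared. Of 61 such genes in the table, 10 had a called transcript (16.4%, against 13.2% of all genes), and 11 of their 116 transcripts were called (9.48%). Their called differences were 0.77 (SE 0.080) for the polymerase gene *Polm*, 0.90 (SE 0.107) for *Polq* of microhomology end joining and 0.61 (SE 0.084) for the helicase *Recql4*. They were 0.48 (SE 0.069) for *Rpa3*, a subunit of the single-strand binding protein, and 0.81 (SE 0.118) for an isoform with 37.5% of the *Rad54b* counts. In the checkpoint clamp, *Hus1* had 0.47 (SE 0.080) and *Rad9a* 0.46 (SE 0.082). For *Lig3*, a ligase, a minor isoform at a level of 359 differed by 0.85 (SE 0.125), and another isoform, at a level of 2.66, was at about 0 in the lower group, so its difference is not given. In *Msh5*, a MutS homologue of meiosis, an isoform with 40.0% of the counts differed by 1.32 (SE 0.199) at a level of 106. The adjusted p-values of these genes in limma's moderated F test lay between 0.0199 and 0.0408. None of the 11 other Fanconi genes and none of the 9 genes of chromatin ubiquitination was called, which are small lists beside 13.2% of all genes.

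The promoters of the members had features that the choice of genes did not use. In 14 of the 39 genes (35.9%) a gene on the opposite strand started within 1000 bases upstream, against 9.49% of 14282 tested protein-coding genes. Among the called members these were *Brca1* with *Nbr1* at 194 bases, *Prkdc* with *Mcm4*, a subunit of the replicative helicase, at 466 bases and *Wrn* with *Purg* at 798 bases. The shortest distances were those of *Lig4* with *Abhd13* (21 bases) and *Fancd2* with *Emc3* (30 bases), and *Atm* and *Npat* were 307 bases apart.

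All 14 partners were in the table and 4 had a called transcript, beside 13.2% of all genes, which include genes that are not protein-coding. Calls also depended on the level, with 15.6% of transcripts called at a level of at least 100 and 2.4% below it. The count is over few genes and was not tested. *Mcm4*, at a level of 7453, differed by 0.41 (SE 0.072, adjusted p = 0.0407 in limma's moderated F test), as did its neighbour *Prkdc* by 0.60. In other pairs the members of a pair differed in their calls. *Ormdl1* differed by 0.70 (SE 0.117, adjusted p = 0.0370), whereas its neighbour *Pms1* had 0.00. *Zfyve26* differed by 0.71 (SE 0.090, adjusted p = 0.0251), whereas *Rad51b*, 978 bases away, had 0.17. The main isoform of *Nbr1* was not called (0.15, adjusted p = 0.329), although another of its isoforms was, and *Purg* had 0.43 (SE 0.155, adjusted p = 0.157). The difference within a pair was not tested.

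Promoter sequences from 250 bases before to 50 bases after the start were matched in RefSeq (GRCm38.p6) for 29 of the 39 members. *Exo1*, *Fancd2*, *Nbn*, *Prkdc*, *Rad50*, *Rad51d*, *Rbbp8*, *Rif1*, *Wrn* and *Xrcc2* were not matched. The E2F-type words TTTCCCGC, TTTCGCGC, TTTGCCGC and TTTGGCGC, known from genes of the S phase, were searched on both strands. At least 1 of them was present in 7 promoters (24.1%), those of *Bard1*, *Brca2*, *Chek2*, *Mdc1*, *Msh3*, *Rad51c* and *Xrcc6*, against 3.46% of the promoters of tested protein-coding genes and 2.26% of all 32851. CCAAT, which shares the letters CCAA with the reverse complement of TTTGGCGC, was present in 17 (58.6%), against 37.9% of the promoters of tested genes. The median GC content of 59.7% was that of the promoters of tested genes. Of the called members, *Brca2* had an E2F-type word and *Brca1* had CCAAT.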

How the data were processed

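RNA-seq libraries from 2 KD and 2 WT samples were compared without covariates, since the study's methods name none. The submitters' labels give the groups. The authors trimmed adapters with BBDuk, quantified reads with Kallisto and compared groups with Sleuth. The transcriptome index, the filter on low counts and whether counting used the strand of the libraries are not given in the sources used here. The authors deposited means over the 4 libraries on the natural log scale (estimated counts scaled by the size factor of their library, with 0.5 added), the variance over the libraries, the variance of the read assignment and the remaining variance between libraries. The table also holds 14 columns of the authors' own comparison (effects, standard errors, test statistics, p-values and q-values) and a gene table holds their combined p-values; neither was used. No library's own values entered, so depth is unknown and no interval for counting error is given.

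The within-group variance was the sum of the assignment variance and the remaining variance, and it has 2 degrees of freedom. The between-group sum of squares was 3 times the variance over the libraries minus 2 times the within-group variance, and was at least 0 in all transcripts. The size of the KD and WT difference is its square root, divided by the natural log of 2. It carries no direction, it cannot be re-centred for another scaling, and it is above 0 even without a true difference. The design named this test for the case that only means and variances were usable. Within-group variances were moderated with squeezeVar of limma 3.58.1 in R 4.3.3, with a trend on the mean, and p-values were adjusted over all transcripts. The procedure was tested on simulated data for 4 libraries. Libraries cannot overlap between groups where the between-group sum of squares exceeds 2 times the within-group variance, and must overlap where it is below that variance. Levels are the exponential of the mean minus 0.5, which for a group gives its geometric mean.

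The members and lists were chosen with earlier results of these data known. Named are all members, the called isoforms, the 5 next to the threshold, the main isoform of each member by role and the called genes among 61 further repair genes, of which 1 is not reported here. Nothing in the labels says that samples are from separate cultures beyond independent transfections, so the within-group spread of the tests may be technical. All 69 member transcripts were matched to GENCODE M21 by identifier and version. Alternatives changed the prior, the filter on levels, the threshold and the residual variance.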

Additional observations from a re-analysis of the deposited data

How the results depend on the processing

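No paired analysis was possible because the columns used hold means and variances over all 4 libraries and no values of single libraries. For the same reason no replicate could be left out, and no other scaling or count test could be run. Without a trend on the level in the prior, 127 of all transcripts were called, 0 member transcripts, 0 member genes and 0 of the further repair genes, and the adjusted p of *Setd2* in limma's moderated F test was 0.0537. Without moderation these numbers were 10, 0, 0 and 0, with an adjusted p of 0.103 for *Setd2* in the F test. An unadjusted p under 0.05 was found for 8218 of all and 14 member transcripts without the trend, and for 7132 and 19 without moderation. At a threshold of 0.01 the numbers called were 0, 0, 0 and 0, since the smallest adjusted p of all transcripts in limma's test was 0.0144, a value that *Setd2* shared with other transcripts (9656 of all and 24 member transcripts had an unadjusted p under 0.05). These stand against 3312 transcripts, 5 member transcripts, 5 member genes and 10 further genes called as reported. With only transcripts of a level of at least 100 tested, 4965 of 18808 transcripts (26.4%), 8 member transcripts, 8 member genes and 18 further genes were called. With the residual variance held at or above that of the read assignment, 4996 of all and 6 member transcripts were called, and with a robust prior 3843 and 5. Over the alternatives, the 5 called members lost 15 calls and the 5 next to the threshold gained 3, and the longer *Atr* isoform gained a call with the residual variance held as above. The causes were not tested. Levels computed as log-normal means moved 2 of 39 summed levels and 5 of 39 main shares by more than the spread. With 2 libraries a group, the median upper limit of 0.51 for uncalled members of a level of at least 100 is the precision of the comparison.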
